A study of Mus musculus with 17 samples.

Results

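Whole testes of newborn Dnmt3L KO mice (2 libraries) were compared with whole testes of newborn wild-type mice (WT, 2 libraries), which together make up 4 of the 17 libraries of the study and 4 of its 11 newborn libraries. The libraries were chosen by genotype and age alone, and all 23978 of 23980 genes quantified without failure in every newborn library entered. All animals were C57BL6/J and were sampled on the day of birth, and the mutant lines had been backcrossed to that strain. Poly(A)-selected RNA was sequenced with strand information. The labels call the replicates biological but do not say whether testes of several animals were pooled, so p-values measure only the spread between these libraries, which may be technical. The remaining newborn libraries, 4 of Pld6 KO and 3 of the Pld6 and Dnmt3l double knockout (DKO), share the fit and its estimate of spread, and also give a further test of Dnmt3l loss, on a background that lacks the enzyme Pld6 in both groups.

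DNMT3L is a relative of the DNA methyltransferases that has no catalytic activity of its own. It binds DNMT3A and DNMT3B and stimulates the new methylation that fetal male germ cells lay down over retrotransposons, paternally imprinted loci and most of the genome. At birth these germ cells are arrested prospermatogonia, a small minority inside cords of Sertoli cells, with Leydig, peritubular and endothelial cells and blood around them. Males without Dnmt3l lose their germ cells later, when these enter meiosis. In RNA of whole testes, fewer cells of a type and less RNA per cell cannot be told apart.

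The targeted transcript was checked first. Dnmt3l (chromosome 10, bases 78042287 to 78063622 of GRCm38) stood at 4.50 and 6.04 CPM (counts scaled to equal library size, with TMM factors) in WT replicates 1 and 2, against 0.175 and 0.0868 CPM in Dnmt3L KO replicates 1 and 2. The raw counts were 53 and 72 against 2 and 1, a ratio of 40.3 with an exact 95% interval of 13.5 to 198 that covers counting error only. Both mutant libraries thus lay far below both WT libraries, as their labels require. Dnmt3l was at 0 to 0.126 CPM in DKO and at 0.495 to 14.6 CPM in Pld6 KO, where replicate 1 was the lowest. That library was also low in germ cell RNA. Its summed level of listed prospermatogonial genes was 241 CPM, against 585, 758 and 472 CPM in Pld6 KO replicates 2, 3 and 4. In DKO the sums were 732, 360 and 743 CPM. Pld6, which encodes a mitochondrial enzyme of piRNA production, was at 4.84 and 3.36 CPM in WT and 5.79 and 1.82 CPM in Dnmt3L KO, so the groups overlapped. Total counts were 11653201 and 11846972 in WT and 11418430 and 11338696 in Dnmt3L KO, so depth differed little between the groups.

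Replicate 1 of Dnmt3L KO stood apart from all other libraries. A gene was called specific to a library where it had at least 50 counts there and at least 10 times the CPM of the highest other newborn library. Dnmt3L KO replicate 1 held 23 such genes, 9 of the other 10 libraries held 0, and Pld6 KO replicate 3 held 1, Apoa4. The 10 of highest CPM were Ldhc, Fabp9, Meig1, Gm3417, Spata4, Cox8c, 4922502D21Rik, Ly6k, 1700008K24Rik and Ldhal6b. Ldhc, the lactate dehydrogenase subunit of spermatocytes and sperm, was at 0.935 and 1.68 CPM in WT and at 65.7 and 2.08 CPM in Dnmt3L KO replicates 1 and 2. Fabp9, a lipid-binding protein of the sperm acrosome, was at 1.02 and 0.756 CPM in WT and 33.8 and 0.694 CPM in the mutants. Meig1, which is needed for sperm tail assembly, was at 1.02 and 0.336 CPM in WT and 32.1 and 0.521 CPM in the mutants. In all 3 genes replicate 1 was high alone, while replicate 2 stayed near or within the WT range.

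Genes of condensing spermatids were at or near 0 in the same library. Of 49 genes on a list of late germ cells, 20 passed the filter on low counts, 20 had 3 or fewer counts in each of the 4 libraries, and 10 of these had 0 counts in all of them. The protamines Prm1 and Prm2, which package sperm DNA, had at most 2 counts and 1 count in any of these libraries, and Prm3, Smcp and Odf3 had 0. Tnp1, a transition protein, reached 5 counts in replicate 1 and 2 in replicate 2. Outside these 4 libraries, Pld6 KO replicate 1 held 2.89 CPM of Prm1, 3.80 of Prm2 and 1.65 of Tnp1. The summed level of the list was 35.3 and 31.1 CPM in WT, 241 in Dnmt3L KO replicate 1 and 45.9 in replicate 2, and between 31.1 and 53.8 CPM in all newborn libraries without replicate 1. Crisp2, a secreted protein of sperm, differed from the pattern: it was at 0 and 0.672 CPM in WT and at 20.9 and 2.26 CPM in the mutants, so that replicate 2 also lay above both WT libraries. Pgk2, a glycolytic enzyme of late germ cells, had 0 counts in both WT libraries and 17 and 5 in the mutants, which makes its mean at least 3.80-fold higher when 3 counts per library stand for 0. The source of these transcripts was not tested, and values below are therefore given for each mutant library.

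**Figure D1:**
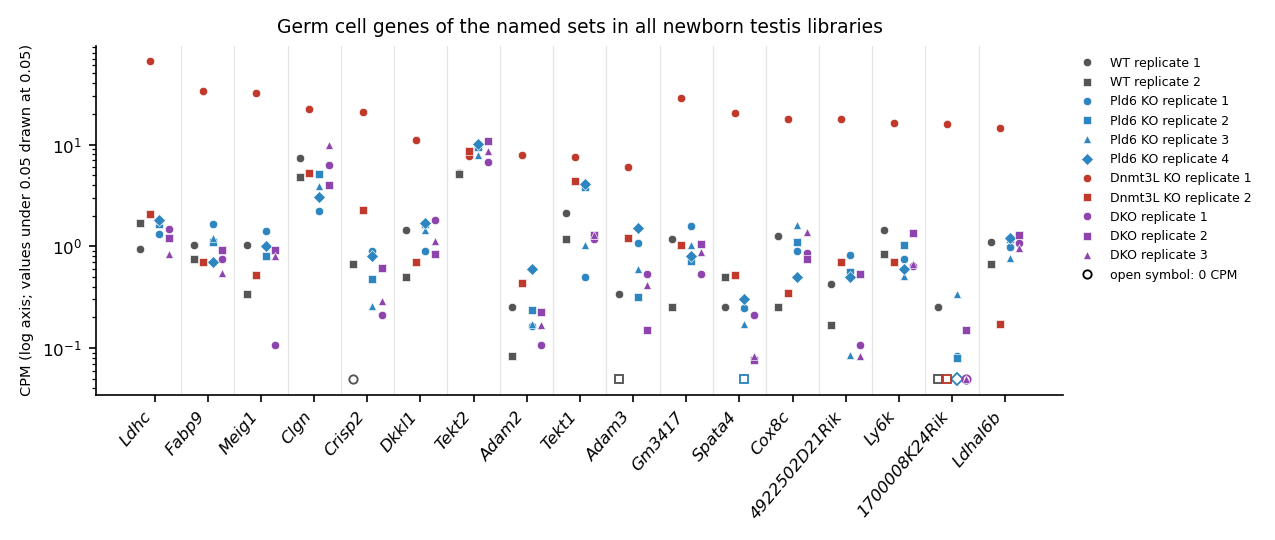
CPM (log axis) of 17 genes in 11 newborn testis libraries: the 10 genes of the late germ cell list with the highest CPM in a mutant library, then the library-specific genes of highest CPM not already shown. Colour gives the genotype and shape the replicate, and values under 0.05 CPM are drawn at 0.05, as open symbols where the value is 0. Dnmt3L KO replicate 1 (red circle) stands above the other 10 libraries for Ldhc, Fabp9 and Meig1, while for Tekt2 both Dnmt3L KO libraries lie above WT and inside the range of the Pld6 KO and DKO libraries.

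No gene passed the main test. Among 15901 genes tested with edgeR (quasi-likelihood test, all 11 newborn libraries in 1 fit), 0 reached a Benjamini-Hochberg adjusted p under 0.05, with or without the fold threshold of 2, and the lowest adjusted p was 0.256. At an unadjusted edgeR p under 0.05 stood 2056 genes, 12.9% of those tested, of which 992 (6.24%) were higher and 1064 (6.69%) lower in Dnmt3L KO. These shares are the background for the counts of list members below. The unadjusted p under 0.05 is the standard used in the text below, so "higher" and "lower" there describe the direction of a difference and not a call after correction. Counts were 1384 without Dnmt3L KO replicate 1, 1773 without replicate 2 and 970 without WT replicate 1. With replicate 1 as the only mutant library, the lone library being assumed to vary like the other groups, edgeR called 56 genes (0.341%), all higher, of which 23 were the library-specific genes and 55 had their highest CPM of all newborn libraries in replicate 1. At the unadjusted p it had 775 genes (4.72%) higher and 998 (6.07%) lower. With replicate 2 as the only mutant library it called 0, with 762 genes (4.66%) higher and 622 (3.80%) lower at the unadjusted p.

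DESeq2, run as the other count test, called 71 genes (0.447%) at an adjusted p under 0.05 and a fold over 2, 46 higher (0.289%) and 25 lower (0.157%). The 71 were called with both mutant libraries and the same WT libraries that the fits with 1 mutant library use. Those fits therefore cannot check the call. The 46 higher genes included members of lists described below (Irf9, Oasl2 and Bst2 of the interferon response, Stfa1 and BC100530 of neutrophils, Sycp1 and Hormad1 of meiosis) and the ribosomal protein genes Rpl39 and Rpl22l1, the latter 2 and the next genes being named after their values had been seen. Rpl39 was at 204 and 226 CPM in WT and 498 and 772 CPM in Dnmt3L KO. Kmt2d was among the 25 lower genes. Kmt2d, a histone H3K4 methyltransferase, was at 313 and 268 CPM in WT and 144 and 135 CPM in the mutants. The groups did not overlap for Rpl39 or Kmt2d.

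GC content set the 2 Dnmt3L KO libraries apart. Across 15086 genes, the deviation of a library from the gene's mean was correlated with transcript GC content. Spearman's rho was -0.397 and -0.408 in Dnmt3L KO replicates 1 and 2, against 0.164 and -0.002 in WT. It was between -0.057 and 0.368 in Pld6 KO. In the DKO libraries, which also lack Dnmt3l, it was 0.260, 0.029 and 0.031. Genes are not independent replicates. The median log2 fold change went from 0.24 in the 3018 genes poorest in GC (median 42.7%) to -0.22 in the 3017 richest (58.2%), the outer of 5 equal bins, with 0.03 over all genes tested. The median GC content was 45.9% for the genes higher and 56.0% for the genes lower at the unadjusted p, and 46.3% and 56.4% for those DESeq2 called higher and lower. With an offset for GC content and length in each library, 714 genes (4.53%) were higher and 700 (4.44%) lower at the unadjusted edgeR p. With it, 573 of 983 of the higher and 513 of 1054 of the lower genes kept an unadjusted edgeR p under 0.05, as did all 71 genes called by DESeq2. All of these genes had been chosen by their p in the same libraries. The part of library preparation in these differences was not tested.

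The naming rule took, from genes at the unadjusted p with at least 50 counts on average in the higher group, no overlap between groups and no more than a 4-fold ratio within the higher group, the 10 largest differences each way, from 673 that qualified as higher and 1023 as lower. Higher were Adtrp, Dmkn, Krt14, Pkhd1l1, Tsx, Dnah6, Stfa1, Plet1, Stk33 and BC100530. Lower were Dnmt3l itself, Egr4, Slc10a3-ubl4, Ret, Glis3, Etv4, Nptxr, Trpv4, Pmaip1 and Tcl1. Adtrp, a hydrolase of fatty acid esters, was at 0.595 and 0.168 CPM in WT and 4.73 and 5.29 CPM in Dnmt3L KO (log2 fold change 3.69, SE 0.67, edgeR adjusted p = 0.256). The mutant libraries lay close together for Adtrp, and it was also higher in DKO (2.81 to 3.41 CPM) than in Pld6 KO (0.495 to 2.07 CPM; log2 fold change 1.16, edgeR adjusted p = 0.79). Pkhd1l1, a large membrane protein, was at 1.78 and 2.60 CPM in WT and 8.24 and 20.5 CPM in Dnmt3L KO. Dmkn and Krt14, both expressed in epidermis, stood at 3.77 and 5.12 and at 5.44 and 10.8 CPM in the mutants, against at most 0.840 and 1.18 CPM in WT.

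Tsx and Stk33 were highest in the library that stood apart. Tsx, a testis-expressed gene of the X chromosome next to the X inactivation centre, was at 1.10 and 0.672 CPM in WT and at 9.03 and 2.34 CPM in Dnmt3L KO replicates 1 and 2. In DKO it was lower than in Pld6 KO (log2 fold change -1.40, edgeR adjusted p = 0.79), and the difference between the 2 effects had an edgeR adjusted p = 0.341. Slc10a3-ubl4, a read-through transcript of the X chromosome, was lower with 3.48 and 7.14 CPM in WT and 0 and 1.48 CPM in the mutants; Cuffdiff divides reads between it and its overlapping neighbours, so its value is uncertain. Pmaip1, which encodes the p53-induced death protein NOXA, was at 28.3 and 25.9 CPM in WT and 9.12 and 3.47 CPM in Dnmt3L KO (log2 fold change -2.10, SE 0.60, edgeR adjusted p = 0.276).

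**Figure D2:**
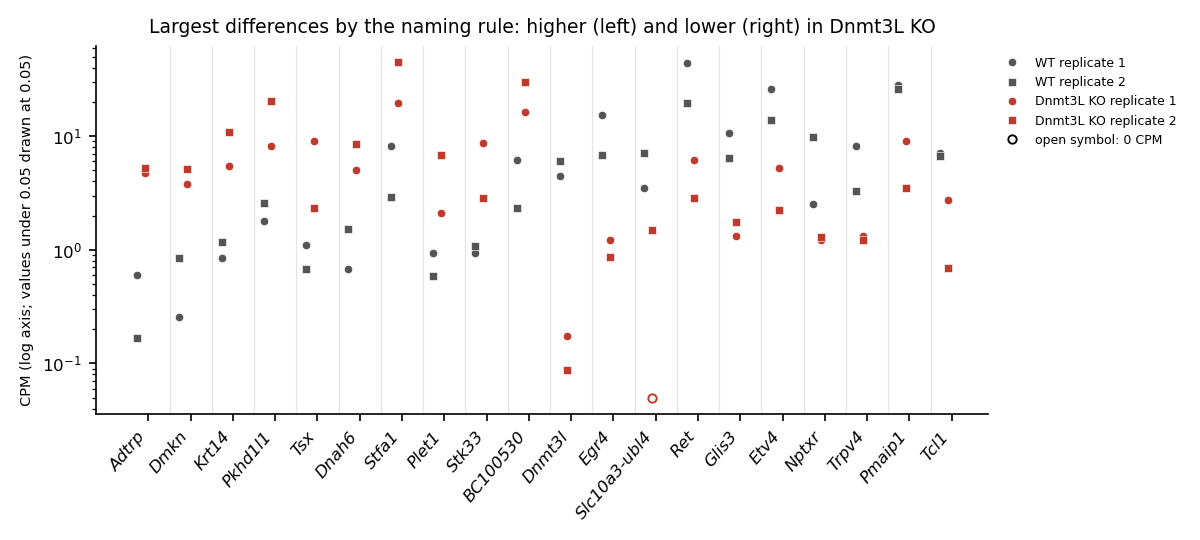
CPM (log axis) in the 2 WT libraries (grey) and the 2 Dnmt3L KO libraries (red) of the 10 genes with the largest higher values and the 10 with the largest lower values by the naming rule. Circles are replicate 1 and squares replicate 2, and the value of 0 for Slc10a3-ubl4 in Dnmt3L KO replicate 1 is an open symbol at 0.05. Groups do not overlap for any of these genes because the rule required it, and the 2 mutant libraries lie close for Adtrp and further apart for Tsx and Stk33.

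Many interferon-stimulated genes were higher in Dnmt3L KO, above all in replicate 2. These genes are switched on when a cell senses foreign or endogenous nucleic acid, through the receptors Ddx58 and Ifih1 and the factors Irf7, Irf9 and Stat2, and they encode antiviral effectors such as the Ifit, Oas and Mx proteins. Of 26 listed genes 25 were tested, and 15 were higher and 0 lower, the median log2 fold change being 1.18 beside 0.03 for all genes. The ranges did not overlap in 15 of the 25, beside 25.3% of all genes tested with both mutant libraries above both WT libraries and 24.3% with both below. Across the list 24 of 25 were higher in replicate 2 than in replicate 1. The median was 1.52 with replicate 2 as the only mutant library (16 higher, 0 lower) and 0.40 with replicate 1 alone (2 higher, 0 lower), and 1.20 with the GC and length offset (13 higher, 0 lower).

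Among the transcription factors, values differed by gene. Irf9, the DNA-binding subunit of the complex ISGF3, was at 17.6 and 14.3 CPM in WT and 26.3 and 45.8 CPM in Dnmt3L KO (log2 fold change 1.18, SE 0.25, edgeR adjusted p = 0.256). Irf7 was at 1.95 and 2.01 against 2.89 and 8.33 CPM. Stat2, a partner of Irf9 in that complex, overlapped between groups (35.3 and 33.8 against 27.6 and 42.9 CPM).

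The RNA sensor Ifih1 was at 5.61 and 4.87 CPM in WT and 6.93 and 15.0 CPM in Dnmt3L KO, and the sensor Ddx58 at 17.8 and 26.1 against 29.5 and 44.9 CPM. Neither overlapped, and for both the higher value was that of replicate 2. Among effectors, Oasl2 was at 12.7 and 6.13 CPM in WT and 16.4 and 55.3 CPM in the mutants (log2 fold change 1.93, SE 0.50, edgeR adjusted p = 0.256). Bst2, which tethers budding virus particles to the cell surface, was at 24.6 and 22.2 CPM in WT and 44.1 and 57.3 CPM in the mutants (log2 fold change 1.11, SE 0.29, edgeR adjusted p = 0.256). Oas3, Mx1, Rsad2 and Cxcl10 overlapped between groups and were not at the unadjusted p. Irgm1 and Gbp3, GTPases of the interferon response, were named after their values had been seen, Irgm1 at 6.71 and 6.21 against 14.2 and 22.0 CPM, and Gbp3 at 2.72 and 2.27 against 6.84 and 14.1 CPM.

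**Figure D3:**
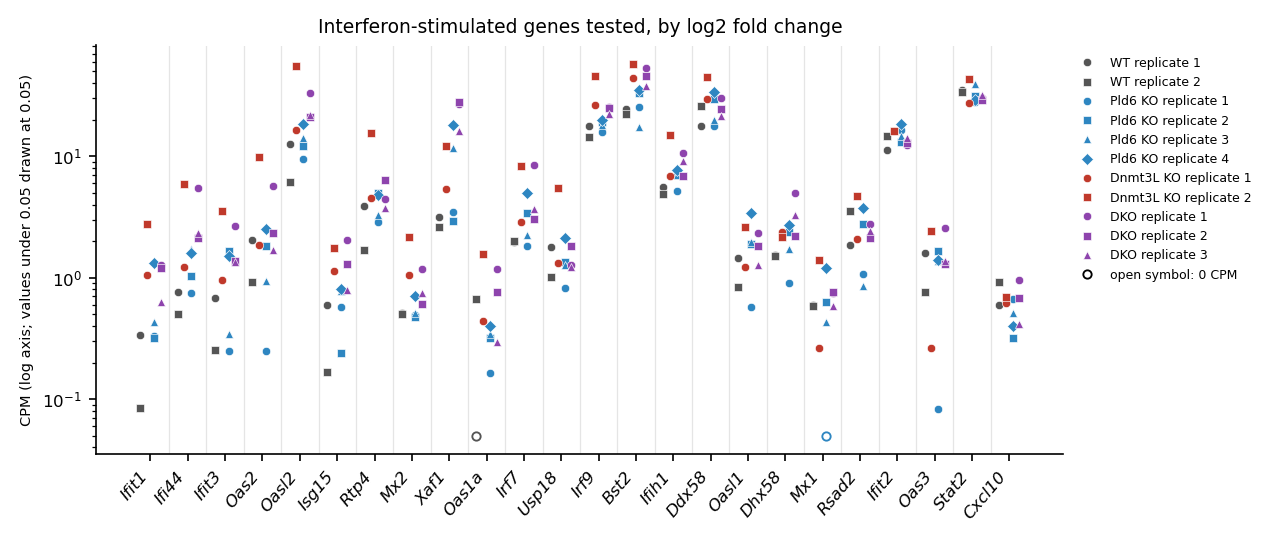
CPM (log axis) of 24 interferon-stimulated genes tested, in the order of their log2 fold change, in all 11 newborn libraries; colour gives the genotype and shape the replicate. Dnmt3L KO replicate 2 (red square) is the higher mutant library for 23 of the 24, and the groups overlap for Cxcl10 at the right end.

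The promoters of 4 of the interferon-stimulated genes at the unadjusted p hold the core of the interferon-stimulated response element, the site that ISGF3 binds. The search was for GAAA, any 2 bases and GAAA again, on either strand and with overlaps allowed, in the 250 bases before the transcription start of RefSeq (GRCm38.p6), in which 3.46% of 27025 genes with a promoter sequence had a match in at least 1 start. Of the 26 listed genes 18 had a promoter sequence and 9 of those had a match; of the 15 genes at the unadjusted p, 11 had a sequence and 4 a match. The 4 are shown because they are the higher genes with a match, each on the coding strand with the matches in capitals, where overlapping matches run together. Ifit1 lies at chr19:34640639-34640888 on the plus strand, Ifit3 at chr19:34583279-34583528 on the plus strand, Isg15 at chr4:156200819-156201068 on the minus strand and Bst2 at chr8:71537473-71537722 on the minus strand.
Ifit1: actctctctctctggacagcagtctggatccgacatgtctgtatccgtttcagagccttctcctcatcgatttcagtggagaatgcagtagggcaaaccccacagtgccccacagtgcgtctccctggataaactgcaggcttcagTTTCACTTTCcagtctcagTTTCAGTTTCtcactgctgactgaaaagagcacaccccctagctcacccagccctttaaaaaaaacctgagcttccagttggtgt
Ifit3: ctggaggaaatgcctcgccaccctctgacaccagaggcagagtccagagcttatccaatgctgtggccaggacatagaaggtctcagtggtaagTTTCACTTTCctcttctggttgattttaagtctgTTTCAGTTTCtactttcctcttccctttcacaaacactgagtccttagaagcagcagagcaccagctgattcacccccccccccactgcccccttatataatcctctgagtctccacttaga
Isg15: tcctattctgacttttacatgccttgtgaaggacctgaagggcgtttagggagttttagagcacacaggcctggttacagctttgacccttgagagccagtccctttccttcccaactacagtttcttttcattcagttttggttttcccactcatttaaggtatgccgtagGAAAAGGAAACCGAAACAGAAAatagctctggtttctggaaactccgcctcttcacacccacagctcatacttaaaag
Bst2: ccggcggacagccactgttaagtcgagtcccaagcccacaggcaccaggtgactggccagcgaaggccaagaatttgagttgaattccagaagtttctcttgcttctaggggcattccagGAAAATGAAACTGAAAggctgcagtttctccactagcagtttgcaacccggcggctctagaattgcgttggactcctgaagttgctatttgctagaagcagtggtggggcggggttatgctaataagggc

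The values that go with these sequences were low for 3 of the 4 genes. Ifit1, which binds viral RNA ends, was at 0.340 and 0.0840 CPM in WT and 1.05 and 2.78 CPM in Dnmt3L KO (log2 fold change 3.12, SE 0.89, edgeR adjusted p = 0.276). Ifit3 was at 0.680 and 0.252 against 0.965 and 3.56 CPM, and Isg15, a ubiquitin-like protein, at 0.595 and 0.168 against 1.14 and 1.74 CPM. In each the mutants lay above WT, and replicate 2 above replicate 1. Stat2, Rsad2, Oas1a, Oas3 and Cxcl10 also had a match and were not at the unadjusted p.

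The same list was measured in the second contrast of Dnmt3l loss, which shares no library with the first. Between DKO and Pld6 KO the median log2 fold change of the 25 genes was 0.59, against -0.00 over all genes, with 6 higher and 0 lower, beside 3.47% of all genes higher there and 2.55% lower. Bst2 was at 37.9 to 53.3 CPM in DKO and 17.3 to 34.9 CPM in Pld6 KO (log2 fold change 0.72, SE 0.22, edgeR adjusted p = 0.79). Oasl2 was at 20.9 to 32.9 against 9.41 to 18.5 CPM. The groups did not overlap for either gene. Summed over the 26 listed genes, the level was 190 and 186 CPM in WT, 239 and 448 in Dnmt3L KO, 168 to 255 in Pld6 KO and 244 to 317 in DKO.

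Genes that mark neutrophils, the granulocytes of blood, were also higher, and like the interferon genes mostly in replicate 2. On a list drawn up after values had been seen, 16 of 18 were tested and 11 were higher and 0 lower. The list holds Stfa1 and BC100530 of the 10 largest rises. Its median was 1.71, 2.04 with replicate 2 alone and 1.16 with replicate 1 alone. S100a8, a calcium-binding protein of granulocytes, was at 20.4 and 7.89 CPM in WT and 32.3 and 66.8 CPM in Dnmt3L KO, and Stfa1, a stefin, at 8.16 and 2.94 against 19.7 and 44.8 CPM. Both were highest in replicate 2. The summed level was 121 and 58.4 CPM in WT, 198 and 364 in the mutants, 34.8 to 127 in Pld6 KO and 80.2 to 208 in DKO. The ranges of Pld6 KO and DKO thus overlapped. Between DKO and Pld6 KO the median of this list was 1.01, with 8 of 16 higher and 0 lower. Of all genes there, 3.47% were higher and 2.55% lower. The list median was thus positive in both contrasts, as that of the interferon-stimulated genes was. The primary granule genes Elane and Mpo were near 0, with at most 6 and 5 counts in the 4 libraries. The Stf genes lie in a cluster of near-identical copies, so how Cuffdiff divided reads among them is uncertain. Stfa1, Stfa2, Stfa3 and Stfa2l1 were among the 11 higher genes and are therefore not separate observations. Macrophage genes stood at a median of 0.41 with 1 of 11 higher (Fcgr3), and 8 of 11 did not overlap with both mutants above WT. Of all genes tested, 6.24% were higher and 25.3% had both mutants above WT. The part of blood cells in the interferon result was not tested.

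Some genes of GDNF and RET signalling were lower in both mutant libraries. GDNF is a growth factor that Sertoli cells secrete, RET and GFRA1 form its receptor on germ cells, and the factors Etv4, Etv5, Egr4 and Bcl6b lie among its targets in spermatogonia. This list was drawn up after values had been seen, and it holds Ret, Etv4 and Egr4 of the 10 largest falls. Of 18 genes 17 were tested, 7 were lower and 0 higher, the median log2 fold change was -1.10, and both mutants lay below both WT libraries in 16 of 17. The median was -1.03 with replicate 2 alone, -1.12 with replicate 1 alone and -1.03 with the GC and length offset, with 6, 2 and 7 genes lower. It depended more on the WT library: the median was -0.66 without WT replicate 1 and -1.36 without WT replicate 2. Immediate early genes, which growth factor signals induce and which share Egr3 with this list, also stood low: 3 of 17 were lower (Jund, Egr3 and Nr4a1), 0 had a positive log2 fold change, and both mutants lay below both WT libraries in 12, with summed levels of 808 and 897 CPM in WT and 569 and 547 CPM in Dnmt3L KO. Their median was -0.33, and -0.51 with replicate 1 alone. With the GC and length offset it was -0.23, with 6 of 17 positive and 2 lower. Between DKO and Pld6 KO it was 0.16, with 12 of 17 positive. Of all genes tested, 24.3% had both mutants below both WT libraries.

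Ret was at 43.7 and 19.6 CPM in WT and 6.23 and 2.86 CPM in Dnmt3L KO (log2 fold change -2.80, SE 0.96, edgeR adjusted p = 0.314). Its coreceptor Gfra1 was at 29.7 and 21.7 against 13.9 and 6.68 CPM, without overlap but not at the unadjusted p. The ligand Gdnf was at 57.1 and 39.0 against 33.2 and 26.3 CPM (edgeR adjusted p = 0.427). All 3 stood lower in each mutant library than in each WT library. Among the targets, Etv4 was at 26.1 and 13.9 CPM in WT and 5.26 and 2.26 CPM in the mutants (log2 fold change -2.41, SE 0.65, edgeR adjusted p = 0.257). Egr4 was at 15.5 and 6.80 against 1.23 and 0.868 CPM (log2 fold change -3.40, SE 0.86, edgeR adjusted p = 0.256). Bcl6b was at 34.3 and 11.8 against 10.3 and 11.3 CPM, so that the 2 mutants lay just under the lower WT library. Of the feedback regulators of the MAP kinase pathway, Dusp5, Dusp6 and Spry4 were lower and Spry2 overlapped, at 17.0 and 11.7 against 13.9 and 17.9 CPM.

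**Figure D4:**
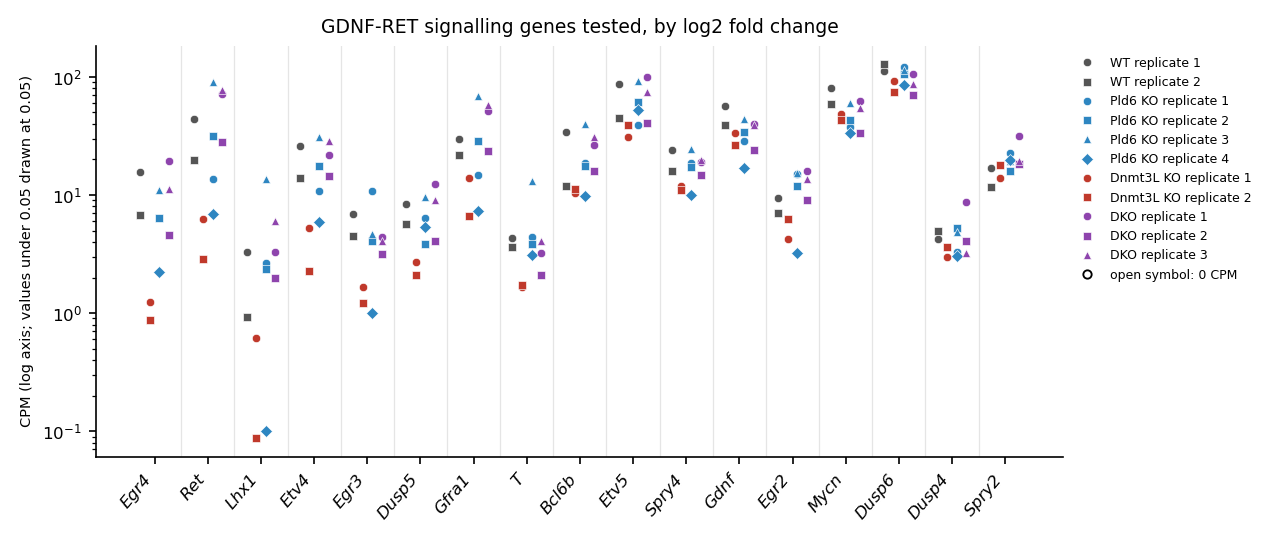
CPM (log axis) of the 17 genes of GDNF and RET signalling tested, in the order of their log2 fold change, in all 11 newborn libraries; colour gives the genotype and shape the replicate. Both Dnmt3L KO libraries (red) lie below both WT libraries (grey) for 16 of the 17, and Pld6 KO replicate 4 (blue diamond) is the lowest Pld6 KO library for Ret and Egr4.

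The second contrast gave other values for these genes. Between DKO and Pld6 KO their median log2 fold change was 0.20, with 0 higher and 0 lower. Ret ranged from 6.84 to 90.2 CPM in Pld6 KO and from 28.0 to 78.0 CPM in DKO, and Egr4 from 2.21 to 11.1 and from 4.55 to 19.5 CPM. Pld6 KO replicate 4, with 6.84 CPM of Ret, lay close to the Dnmt3L KO libraries. The difference between the 2 effects was at an unadjusted edgeR p under 0.05 for Ret, Etv4 and Egr4, and the lowest adjusted p of that test over all genes was 0.341. Of other genes of undifferentiated spermatogonia, Zbtb16 was at 13.1 and 6.88 CPM in WT and 4.56 and 2.26 CPM in Dnmt3L KO (edgeR adjusted p = 0.472), Sall4 at 28.4 and 16 against 9.12 and 7.81 CPM (edgeR adjusted p = 0.531), and Id4 at 14.0 and 8.23 against 5.35 and 4.43 CPM (log2 fold change -1.18, edgeR adjusted p = 0.334).

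General germ cell markers divided between both directions. Of 20 listed prospermatogonial genes all were tested, 2 were higher (Tex101 and Stk31) and 2 lower (Ret and Id4). Both mutants lay above WT in 3, below WT in 7 and overlapped with WT in 10. Of all genes tested, 25.3% had both mutants above WT and 24.3% below. The list had a median of 0.15, of -0.39 with replicate 2 alone (0 higher, 3 lower) and of 0.15 with replicate 1 alone, and the summed level was 528 and 366 CPM in WT and 571 and 382 in Dnmt3L KO. Ddx4, an RNA helicase of all germ cells, was at 60.8 and 42.1 CPM in WT and 92.8 and 55.6 CPM in the mutants. Dazl, an RNA-binding protein of germ cells, was at 107 and 90 against 171 and 107 CPM. Replicate 1 was above WT in both genes, and replicate 2 was within or at the edge of the WT range. The pluripotency factor Pou5f1 was at 5.69 and 4.03 against 5.35 and 5.38 CPM, with the mutants inside the WT range.

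Genes of meiosis were higher mainly in replicate 1. Of 31 listed genes of meiotic prophase 30 were tested. Of these, 13 were higher and 0 lower, beside 6.24% and 6.69% of all genes tested. The median was 0.92, against 1.09 with replicate 1 alone and 0.21 with replicate 2 alone. Replicate 1 exceeded replicate 2 in 24 of 30. Sycp3, an axis protein of meiotic chromosomes, was at 7.22 and 4.79 CPM in WT and 34.7 and 6.68 CPM in Dnmt3L KO, and Stra8, which drives meiotic entry, at 1.19 and 1.01 against 14.4 and 0.607 CPM. In both, replicate 2 lay within the WT range or below it. On the late germ cell list, of 20 tested genes 9 were higher and 0 lower, with a median of 1.19, of 0.81 with replicate 1 alone and of 0.04 with replicate 2 alone. Between DKO and Pld6 KO the median was 0.19 for meiotic prophase and -0.18 for late germ cells.

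Several meiotic genes stood above WT in both libraries. Sycp1, the transverse filament of the synaptonemal complex, was at 11 and 9.57 CPM in WT and 52.6 and 16.7 CPM in Dnmt3L KO (log2 fold change 1.76, SE 0.43, edgeR adjusted p = 0.256). Hormad1, which marks unsynapsed chromosome axes, was at 11.9 and 9.91 against 41.2 and 23.4 CPM (log2 fold change 1.57, SE 0.42, edgeR adjusted p = 0.257). Stk31, a germ cell kinase with a Tudor domain, was at 16.2 and 16.7 against 44.0 and 32.8 CPM (log2 fold change 1.22, SE 0.44, edgeR adjusted p = 0.318). With replicate 2 alone the log2 fold changes were 0.70 for Sycp1, 1.10 for Hormad1 and 0.99 for Stk31. Stag3, a meiotic cohesin subunit, was the other way round, at 29.1 and 22.5 CPM in WT and 40.2 and 59.8 CPM in the mutants.

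Sycp1, Hormad1 and Stk31 belong to a list of germline genes known to be silenced by promoter methylation in other cells. Of 23 such genes 22 were tested, and 5 were higher (Hormad1, Sycp1, Sycp3, Tex101 and Stk31) and 0 lower. Of all genes tested, 6.24% were higher and 6.69% lower. The median of the listed germline genes was 0.59, 0.13 with replicate 2 alone and 0.85 with replicate 1 alone. Their promoters are rich in CpG, the site of methylation: the median was 17 CpG in the 250 bases before the start for the 21 genes with a sequence, against 6 for all genes. The promoters of Hormad1 (chr3:95559427-95559676, plus strand, 19 CpG) and Sycp1 (chr3:102936101-102936350, minus strand, 17 CpG) are shown because both mutant libraries exceeded WT for these genes, with each CG in capitals. Methylation itself was not measured here.
Hormad1: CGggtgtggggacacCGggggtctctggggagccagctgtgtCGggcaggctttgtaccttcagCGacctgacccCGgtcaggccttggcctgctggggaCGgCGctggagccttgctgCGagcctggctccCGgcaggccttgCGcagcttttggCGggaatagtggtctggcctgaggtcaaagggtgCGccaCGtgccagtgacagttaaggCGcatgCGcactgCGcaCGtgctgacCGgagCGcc
Sycp1: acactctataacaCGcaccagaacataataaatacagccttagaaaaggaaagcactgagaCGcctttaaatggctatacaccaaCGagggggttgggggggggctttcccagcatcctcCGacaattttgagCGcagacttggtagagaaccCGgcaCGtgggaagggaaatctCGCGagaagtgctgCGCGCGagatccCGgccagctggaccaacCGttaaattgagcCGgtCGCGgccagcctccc

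Genes of motile cilia and sperm tails, on a list drawn up after values had been seen, had a median of 1.19. Of 18 genes 9 were higher and 0 lower, beside 6.24% and 6.69% of all genes tested. The list holds Dnah6 and Stk33 of the 10 largest rises. Its median was 0.85 with replicate 2 alone and 1.47 with replicate 1 alone. Between DKO and Pld6 KO it was -0.35, with 3 of 18 positive, 0 higher and 1 lower. Rsph1, a radial spoke protein, was at 4.50 and 3.95 CPM in WT and 45.6 and 3.64 CPM in Dnmt3L KO, and the ciliary master regulator Foxj1 overlapped at 1.36 and 0.840 against 1.14 and 0.868 CPM. Rsph1 was thus a feature of replicate 1. Dnah6, an axonemal dynein, was higher in both mutants, at 0.680 and 1.51 against 5 and 8.59 CPM.

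Several factors of DNA methylation besides Dnmt3l were lower. Of 22 tested, 5 were lower (the targeted Dnmt3l, Dnmt1, Uhrf1, Tet3 and Tdg) and 1 higher (Kdm1b), with a median of -0.22. Of all genes tested, 6.69% were lower and 6.24% higher. The list median was -0.34 with replicate 1 alone and -0.12 with replicate 2 alone. With the GC and length offset it was -0.17, with 4 lower and 0 higher. Between DKO and Pld6 KO it was 0.06, with 15 of 22 positive, 2 higher and 1 lower. In that contrast 3.47% of all genes were higher and 2.55% lower. Dnmt1, the maintenance methyltransferase, was at 311 and 279 CPM in WT and 165 and 193 CPM in Dnmt3L KO (log2 fold change -0.72, SE 0.26, edgeR adjusted p = 0.322), and its partner Uhrf1 at 169 and 168 against 102 and 85.5 CPM. Both mutants lay below WT for each. Dnmt3a, the enzyme that DNMT3L stimulates, was at 273 and 254 against 176 and 234 CPM (edgeR adjusted p = 0.444). Kdm1b, an H3K4 demethylase, was at 41.1 and 55.4 against 66.5 and 133 CPM. None of the 14 H3K9 silencing factors was at the unadjusted p, and their median was -0.21; Morc1, a germline silencing protein, was at 22.2 and 24.4 against 12.3 and 8.68 CPM (edgeR adjusted p = 0.394).

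Of 22 genes of the piRNA pathway, 1 was higher and 0 lower, beside 6.24% and 6.69% of all genes tested. Both mutants were above WT in 11, beside 25.3% of all genes tested. The median was 0.52, 0.33 with replicate 2 alone and 0.34 without WT replicate 2. Rnf17, a Tudor domain protein, was at 13.1 and 13.8 CPM in WT and 34.2 and 29.2 CPM in Dnmt3L KO (log2 fold change 1.24, SE 0.43, edgeR adjusted p = 0.314). Piwil2 and Piwil4, the PIWI proteins of prospermatogonia, were at 59.3 and 44.9 against 54.0 and 83.6 CPM and at 3.65 and 4.03 against 4.65 and 9.11 CPM, while Piwil1, which appears in spermatocytes, was at 2.72 and 2.27 against 15.0 and 1.39 CPM. Piwil1 was again high in replicate 1 alone.

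The study lists 37 genes linked to a retrotransposon that was active in Dnmt3l mutant spermatocytes; they were chosen in other libraries and at a later stage than these. In newborn testes 27 of them were tested, 4 were higher (Apoh, Pamr1, 4930486L24Rik and Caps2) and 0 lower, with a median of 0.29. Both mutants lay above WT in 13. Of all genes tested, 6.24% were higher and 25.3% had both mutants above WT. Apoh, a plasma glycoprotein made by the liver, had 0 counts in both WT libraries and 9 and 21 in Dnmt3L KO, so that its mean was at least 5.15-fold higher when 3 counts per library stand for 0 (edgeR adjusted p = 0.256). It was at 1.07 to 2.14 CPM in DKO and 0.171 to 0.604 CPM in Pld6 KO (log2 fold change 2.08, edgeR adjusted p = 0.655). Apoh passed the filter on low counts only through libraries without Dnmt3l, where it was high, so its separation is not a test. Caps2, a calcium-binding protein, was counted 2 and 3 times in the WT libraries, against 21 and 17 times in the mutants, a ratio of 7.85 (exact 95% counting interval 3.08 to 25.5), and between DKO and Pld6 KO it did not stand apart (log2 fold change 0.22, edgeR adjusted p = 0.951).

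Pamr1, a secreted peptidase-like protein, was at 4.16 and 8.56 CPM in WT and 12.7 and 21.1 CPM in Dnmt3L KO (log2 fold change 1.41, SE 0.49, edgeR adjusted p = 0.314). Capn11 and Tecrl, both at the low end, were at 0.595 and 0.336 against 1.14 and 0.868 CPM and at 0.170 and 0.504 against 0.351 and 0.954 CPM, and neither was at the unadjusted p. Slc15a2 stood the other way, at 5.78 and 8.14 CPM in WT and 1.58 and 2.43 CPM in Dnmt3L KO, but Pld6 KO ranged from 1.54 to 23 CPM. It was not at the unadjusted p. The uncharacterised transcript 4930558C23Rik, named after its values had been seen, had 0 counts in both WT libraries and 14 and 10 in Dnmt3L KO. It was at least 4.13-fold higher on the same floor. Because it was picked for these values, its separation is not a test.

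Other liver genes were described with a list drawn up after values had been seen. Of 20 such genes 15 were tested, and 6 were higher and 0 lower, beside 6.24% and 6.69% of all genes tested. The median was 1.28, 1.76 with replicate 2 alone and 0.61 with replicate 1 alone. Among the listed genes that averaged 50 counts or more over the 11 newborn libraries, the median was -0.25. Between DKO and Pld6 KO the median of the list was -0.02, with 7 of 15 positive, 4 higher and 1 lower. Mug1, a protease inhibitor of plasma, was at 0.425 and 0.756 CPM in WT and 3.86 and 4.08 CPM in Dnmt3L KO. The bile salt pump Abcb11 was counted 1 and 2 times in the WT libraries, against 20 and 53 times in the mutants, a ratio of 25.1 (exact 95% counting interval 8.27 to 125). The abundant liver transcripts did not go with them: Alb was at 1.53 and 0.168 against 0.877 and 1.48 CPM, Afp at 8.07 and 7.81 against 7.72 and 5.55 CPM, and Ttr had at most 2 counts. Of the epidermal genes on a list made in the same way, 4 of 9 were higher (Krt14, Krt1, Dmkn and Krtdap) and 0 lower. The list holds Dmkn and Krt14 of the 10 largest rises. Its median was 0.73, 0.28 with replicate 2 alone and 1.38 with replicate 1 alone. Krt1 was at 0.255 and 0.168 CPM in WT and 7.54 and 0.694 CPM in the mutants, a ratio of 19.4 (exact 95% counting interval 8.03 to 61.2). The liver and epidermal lists were both drawn up after values had been seen. The separation of Mug1, Abcb11 and Krt1, all low in WT, is therefore not a test.

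Markers of somatic cells were measured to check the tissue. Of 18 Sertoli cell genes 4 were lower (Sox8, Gata4, Inha and Inhbb) and 1 higher (Tsx), beside 6.69% and 6.24% of all genes tested. The median was -0.38, -0.57 with replicate 2 alone and -0.40 with replicate 1 alone. The list's median GC content was 53.8%, against 50.7% for all genes tested. With the GC and length offset the median log2 fold change was -0.31, with 2 lower and 1 higher. Between DKO and Pld6 KO it was 0.06, with 11 of 18 positive, 0 higher and 1 lower. Both mutants lay below WT in 11, beside 24.3% of all genes tested. Sox8, a transcription factor of the sex-determining pathway, was at 135 and 97.5 CPM in WT and 58.1 and 62.0 CPM in Dnmt3L KO (log2 fold change -0.95, SE 0.32, edgeR adjusted p = 0.31). Inha, the inhibin alpha subunit, was at 1106 and 1190 against 828 and 566 CPM. Amh, the hormone that regresses the Müllerian duct, was at 566 and 400 against 332 and 307 CPM (edgeR adjusted p = 0.567). These defining markers were abundant in all 4 libraries, as the label of whole testis requires.

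Of 13 fetal Leydig cell genes, Hsd3b1, an enzyme of androgen synthesis, was higher at 791 and 707 against 1313 and 1561 CPM (log2 fold change 0.94, SE 0.27, edgeR adjusted p = 0.285), and Scarb1 lower, with a median of 0.14. The adrenal steroid enzyme Cyp21a1 was at 3.91 and 7.56 CPM in WT and 4.21 and 25.0 CPM in Dnmt3L KO, high in replicate 2 alone. The median was 0.22 for 9 endothelial genes (2 higher), 0.18 for 8 stromal genes and -0.08 for 10 peritubular genes (1 lower). Haemoglobin genes varied within genotypes: Hbb-bt was at 201 and 379 CPM in WT and 633 and 165 CPM in the mutants.

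Few imprinted genes differed in RNA of whole testes, where 6.24% of all genes tested were higher and 6.69% lower. At paternally methylated loci, whose marks DNMT3L helps to set in fetal male germ cells, 1 of 10 genes was lower and 0 were higher. The lower gene was Rasgrf1, at 7.82 and 4.45 CPM in WT and 2.46 and 2.78 CPM in Dnmt3L KO. The median was -0.05. H19 was at 708 and 1178 CPM in WT and 650 and 1022 CPM in the mutants, and Igf2 at 484 and 605 against 386 and 795 CPM. The ranges overlapped for both. Germ cells are a small minority of these testes, and RNA of somatic cells is measured with theirs. These values therefore cannot show whether imprinted genes changed in germ cells. At maternally methylated loci 1 of 29 was lower (Igf2r), with a median of -0.05. Among lists of cell state, cholesterol synthesis had 3 of 19 lower (Lss, Dhcr7 and Srebf2; median -0.15), p53 targets 3 higher and 2 lower of 19 (median 0.02) and cell cycle genes 1 of 19 lower (Mcm2; median 0.04).

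**Figure D5:**
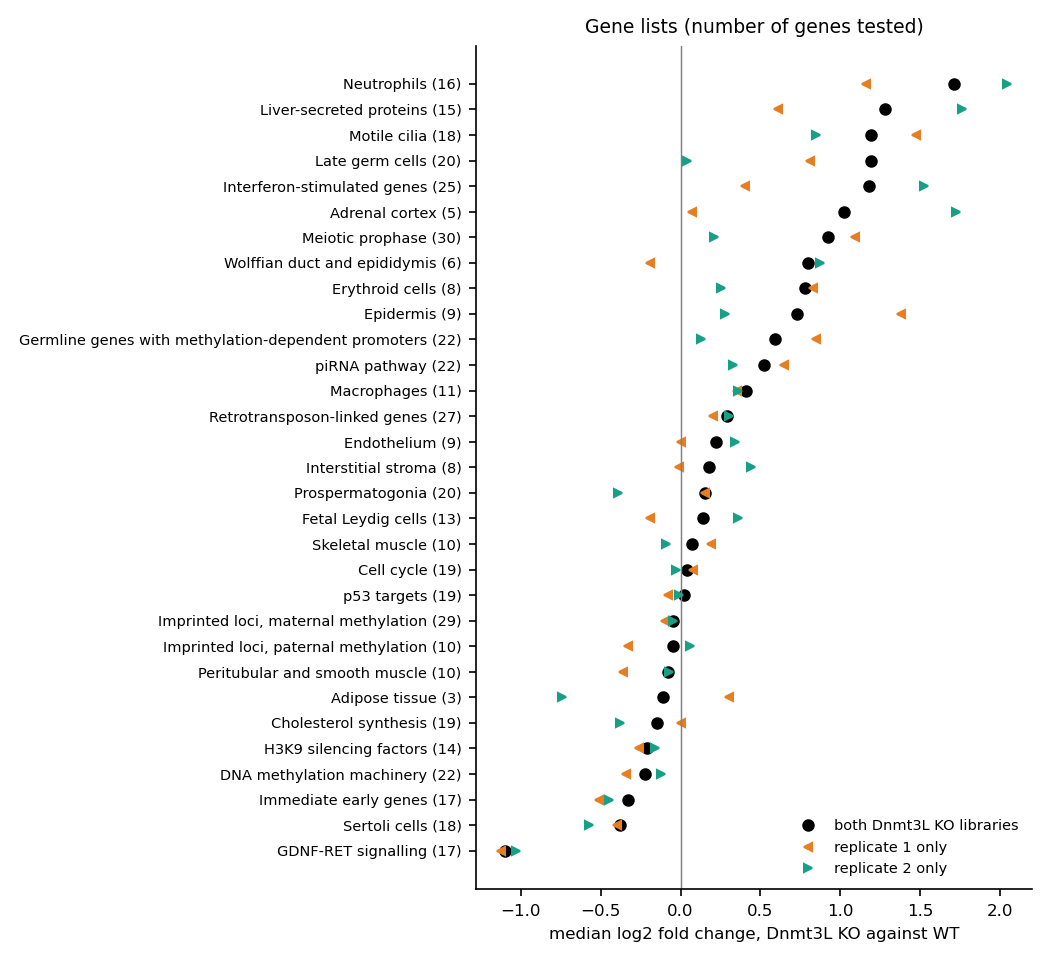
Median log2 fold change between Dnmt3L KO and WT of 31 gene lists (vertical axis, with the number of genes tested), from the fit with both mutant libraries (black circle), with replicate 1 as the only mutant library (orange triangle) and with replicate 2 as the only one (green triangle). GDNF-RET signalling, a list drawn up after values had been seen, lies between -1.12 and -1.03 here. Its median was -0.66 without WT replicate 1, -1.36 without WT replicate 2 and 0.20 between DKO and Pld6 KO. Interferon-stimulated genes range from 0.40 to 1.52, and late germ cells from 0.04 to 1.19.

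Over all genes, the second contrast of Dnmt3l loss followed the first weakly for the higher genes and ran against it for the lower ones. Of the 992 genes higher in Dnmt3L KO, 547 (55.1%) were also higher in DKO than in Pld6 KO, with 56 at an unadjusted edgeR p under 0.05 higher there and 10 lower. Of the 1064 genes lower in Dnmt3L KO, 704 (66.2%) were higher in DKO, with 62 at that p higher there and 35 lower. Over all genes tested the share higher in DKO was 49.9%. The Pld6 KO group of this contrast includes replicate 1, which was low in germ cell RNA. The part of that library in these shares was not tested. The test of the difference between both effects called 0 of 15901 genes with edgeR, with 1740 at an unadjusted p under 0.05, and DESeq2 called 48. Between DKO and Pld6 KO edgeR called 0 genes, with 957 at an unadjusted p under 0.05, and DESeq2 called 6, among them Dnmt3l, Alas1 and Spp1.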

How the data were processed

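Poly(A)-selected RNA of newborn whole testes was sequenced in 11 libraries, of which 2 WT and 2 Dnmt3L KO libraries form the comparison. Per the submitters' processing notes, reads were aligned to mm10 with TopHat and quantified with Cuffdiff. The versions are not given in the sources used here. The authors deposited, per gene and replicate, estimated counts of fragments, not normalized between libraries, and FPKM values. The deposited replicates are numbered from 0, and the lowest number was read as replicate 1. Cuffdiff divides reads between overlapping or near-identical genes, so estimated counts of such genes are uncertain.

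Estimated counts were rounded to whole numbers (98.9% of values were whole within 0.01), and 2 genes with a status other than OK were left out. All 11 newborn libraries were fitted together with edgeR 4.0.16 in R 4.3.3 (filterByExpr, TMM, quasi-likelihood test), and genes were called at a Benjamini-Hochberg adjusted p under 0.05 and a fold over 2. CPM are counts scaled to equal library size with TMM factors. Alternatives used DESeq2 1.42.0, limma 3.58.1 on log2 of the deposited FPKM plus 1 or plus 0.1, other filters and scalings, an offset for GC content and length, a replicate block, and leaving out each library. The scripts were tested on simulated data. Depth was 11338696 to 11846972 counts in the 4 libraries and 9900346 to 23498968 in the other 7. Exact intervals cover counting error only.

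Genes named were Dnmt3l, list members, the 10 largest differences each way, the 10 late germ cell genes of highest CPM in a mutant library and the 10 library-specific genes of highest CPM, under the limits given in the text, with exceptions stated there. Members and lists were chosen with earlier results of these data known, and 5 of the 31 lists were added after values had been seen. Promoter sequences came from RefSeq (GRCm38.p6). The tables of spermatocytes were not used here. Replicates 1 and 2 of WT and Dnmt3L KO were checked for duplication, and their counts differed by more than sampling noise. Values of some genes are not reported here, though they remain in the counts and medians.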

Additional observations from a re-analysis of the deposited data

How the results depend on the processing

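Between Dnmt3L KO and WT, edgeR called 0 genes, with 2056 at an unadjusted p under 0.05. DESeq2 called 71 genes, the WT and Dnmt3L KO libraries fitted alone gave 2 (Dnmt3l and Rps19-ps3), and limma on log2(FPKM + 0.1) gave 1 (4930558C23Rik). Leaving out each library in turn gave 0 to 56 calls and 970 to 2357 genes at the unadjusted p. The 56 came without Dnmt3L KO replicate 2. There were 2 calls without WT replicate 1 (Eif3j1 and Gm7334), where the 970 also stood, and 2 without WT replicate 2 (Trim12a and Trim30d). Between DKO and Pld6 KO, DESeq2 called 6 genes (Alas1, Dnmt3l, Mybpc3, Pisd-ps1, Pisd-ps2 and Spp1), and leaving out a library gave 0 to 2: Alas1 and Dnmt3l without Pld6 KO replicate 1, and Pitpnm3 and Tmem245 without Pld6 KO replicate 3. For the difference of both effects, DESeq2 called 48 and leaving out a library gave 0 to 16, with 16 without Pld6 KO replicate 3, 13 without Dnmt3L KO replicate 2, 2 without WT replicate 2 (Trim12a and Trim30d) and 1 without WT replicate 1 (Eif3j1). The cause of these changes was not tested. Without Dnmt3L KO replicate 1, 7 named genes reversed, and over the libraries left out their log2 fold changes ranged from -0.35 to 5.21 (Fabp9), -0.38 to 5.53 (Meig1), -0.22 to 1.86 (Clgn), -0.49 to 3.48 (Dkkl1), -1.12 to 5.08 (Cox8c), -0.71 to 3.79 (Ly6k) and -2.29 to 3.99 (Ldhal6b), each lowest without replicate 1. Of 708 pairs of a named gene and a setting, 22 passed the threshold that no gene passed before and 7 reversed; no call could be lost. TMM without the germ cell lists gave 896 genes higher and 1173 lower at the unadjusted p, against 992 and 1064. The replicate numbers did not pair WT with Dnmt3L KO (correlation of deviations -0.164). With the replicate block edgeR called 0 genes, with 952 higher and 1038 lower at the unadjusted p, and with the numbers crossed in Dnmt3L KO 0, with 953 and 1138. On log2(FPKM + 1), which understates differences of low genes, list medians were smaller: 0.59 for interferon-stimulated genes, -0.72 for GDNF-RET signalling, 0.56 for meiotic prophase, 0.60 for late germ cells, 0.47 for motile cilia, 0.39 for liver-secreted proteins and 0.14 for the retrotransposon-linked genes.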
